A study of Homo sapiens with 12 samples.

Results

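BT-549 and SUM149 are established human lines of triple-negative breast carcinoma, which lacks oestrogen receptor, progesterone receptor and HER2. Both lines had received a hairpin RNA, either a control hairpin (CshRNA) or a hairpin against MUC1-C (MUC1shRNA), the transmembrane subunit of the mucin MUC1. Poly(A) RNA of cells cultured in triplicate gave 3 libraries in each of 4 groups: BT-549/CshRNA, BT-549/MUC1shRNA, SUM149/CshRNA and SUM149/MUC1shRNA. The comparison described here set the lines against each other after MUC1 silencing and used the 6 MUC1shRNA libraries, 3 of BT-549 and 3 of SUM149, of 12 in all. It asked which differences between the lines remained, appeared or shrank once both carried the MUC1-C hairpin, and the 6 CshRNA libraries gave the same difference in the control arm. Below, before and after silencing mean the CshRNA and the MUC1shRNA arm, which are separate cultures. The 15649 genes that passed a filter on low counts were all tested.

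The groups differed in more than the line. BT-549 was grown in RPMI1640 with insulin, and SUM149 in Ham's F-12 with insulin and hydrocortisone, in both arms, so that line and medium cannot be told apart. In the column names the BT-549 control is called vector, while its sample labels call it CshRNA. Each group is 1 line in 1 medium, and p-values therefore measure the spread between parallel cultures, not between lines of a kind.

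MUC1 encodes a mucin of the apical surface of epithelial cells whose C-terminal subunit, MUC1-C, spans the membrane and signals inside carcinoma cells. Epithelial identity in breast cells rests on cadherin junctions, keratins, the splicing regulators of the ESRP family and transcription factors such as GRHL2 and TP63, whereas mesenchymal-like lines express vimentin, fibrillar collagens and the repressors ZEB1 and ZEB2. ATF4 is a transcription factor that cells make when amino acids are short or the endoplasmic reticulum is stressed, and it switches on amino acid transporters, enzymes of serine and asparagine synthesis and tRNA synthetases.

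Sequencing depth was uneven. The SUM149 MUC1shRNA libraries held between 7931614 and 9623924 counts, below the 16373893 to 21248768 of the BT-549 MUC1shRNA libraries, and the summed counts of the arms stood at a ratio of 2.16. CshRNA libraries held 16332364 to 20745835 counts in BT-549 and 19392422 to 24140623 in SUM149. Levels below are CPM, read counts scaled to library size after TMM normalisation, and the smallest level that 3 counts over a group allow was 0.0584 CPM for BT-549 MUC1shRNA and 0.108 CPM for SUM149 MUC1shRNA. Library 2 of BT-549 MUC1shRNA and library 3 of each CshRNA group differed more from their replicates than those replicates did from each other, with chi-square values per degree of freedom of 8.33 to 14.5 against 1.85 to 4.43. Library 2 of SUM149 MUC1shRNA did so too, in a group of lower depth, at 5.51 and 3.66 against 2.33. Where a call given below turned on 1 library, the value without it is given.

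The hairpin's target was low in every MUC1shRNA library. MUC1 (chromosome 1, 155185824 to 155192916, minus strand of GRCh38) was at 3.60, 6.02 and 4.28 CPM in BT-549 MUC1shRNA and 1.06, 0.334 and 0.482 CPM in SUM149 MUC1shRNA, against 51.9, 53.7 and 54.3 and 16.4, 16.6 and 12.1 CPM in the CshRNA groups. No MUC1shRNA library overlapped a CshRNA library of its line, and BT-549 stayed above SUM149 in both arms. The line difference, written throughout as log2 of BT-549 minus SUM149, was 2.90 (SE 0.35, adjusted p = 2.0e-06) after silencing and 1.82 (SE 0.14, adjusted p = 1.1e-08) before it. Its change of 1.08 (SE 0.43) did not pass the test in edgeR (adjusted p = 0.059), although it did on leaving out library 1 of BT-549 MUC1shRNA (adjusted p = 0.032), library 3 of SUM149 CshRNA (0.018) or library 1 of SUM149 MUC1shRNA (0.025). It also passed with DESeq2 (adjusted p = 0.028), without a filter (0.0055) and with the stricter filter (0.048).

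After silencing the lines still differed over much of the transcriptome. A gene was called a line difference at an adjusted p below 0.05 in edgeR's quasi-likelihood test and at least 2-fold, and 6968 of 15649 genes (44.5%) met this in the MUC1shRNA libraries. BT-549 was higher in 3112 of them (19.9% of tested genes) and SUM149 in 3856 (24.6%). In the CshRNA libraries the numbers were 3180 (20.3%) and 4274 (27.3%), 7454 in all. Both arms shared 5662 line differences of the same sign, which were 76.0% of those before silencing and 81.3% of those after it. The 6 MUC1shRNA libraries did not overlap by line in 12756 genes (81.5%), a background for every gene below whose groups do not overlap. The median absolute difference over all genes was 0.891 after silencing and 0.942 before.

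The change of the line difference was tested on its own, as an interaction of line and hairpin. It passed in 3046 genes towards BT-549 (19.5%) and in 3148 towards SUM149 (20.1%), with a median of 0.04 over all genes. Of the 5662 differences that remained, 555 widened, 951 narrowed and 4156 had a change that did not pass the test. Another 814 genes (5.2%) became line differences after silencing with a change that passed, and are called appeared. A further 1096 genes (7%) ceased to be line differences with such a change, and are called closed, while 52 genes (0.332%) were line differences in both arms with opposite sign. The response to the hairpin was the larger one in SUM149 in 606 of 814 appeared, 842 of 1096 closed and 43 of 52 reversed genes, beside 9957 of all 15649 (63.6%). Only SUM149 passed the test of its own response in 430 appeared and 613 closed genes, and only BT-549 in 121 and 121.

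**Figure D1:**
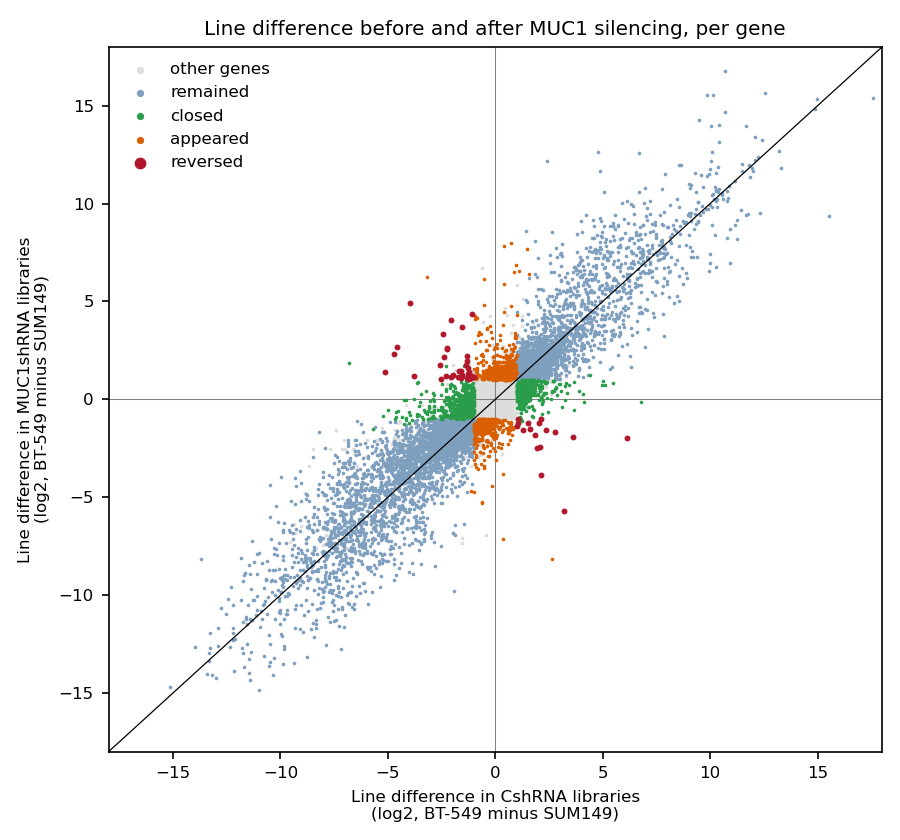
Each point is a tested gene, placed by its line difference (log2, BT-549 minus SUM149) in the CshRNA libraries on the x axis and in the MUC1shRNA libraries on the y axis, with colours for genes that remained, closed, appeared or reversed and a line where both are equal. Most points follow that line, the 814 appeared genes lie near x = 0 and the 1096 closed genes near y = 0, and points far out are fitted values of genes at or near 0 in 1 line.

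Epithelial and mesenchymal identity kept the lines apart after silencing. All 15 general epithelial markers were line differences with SUM149 higher in both arms, and their summed level was 3.28 to 3.70 CPM in BT-549 MUC1shRNA against 1687 to 1734 CPM in SUM149 MUC1shRNA. Their median difference was −9.83 after silencing, or −9.19 with the 5 members at 0 in BT-549 set at their bounds and −11.3 without BT-549 MUC1shRNA 2, beside a median of −0.03 over all tested genes. In bulk RNA, fewer cells of a type and less RNA per cell cannot be told apart. Leukocyte markers summed to at most 6.07 CPM in any MUC1shRNA library and endothelial markers to at most 21.5 CPM, with 3 of 14 and 3 of 10 members above the filter.

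EPCAM, the epithelial adhesion molecule, was at 0.0515, 0.0590 and 0 CPM in BT-549 MUC1shRNA and 456, 428 and 452 CPM in SUM149 MUC1shRNA, and at 0.168, 0.0664 and 0.626 against 399.5, 426 and 381 CPM before silencing. BT-549 held 2 EPCAM counts in all after silencing, so that no fold is given. CDH1, which encodes E-cadherin, was at 1.49, 1.42 and 1.2 against 218, 205 and 211 CPM, a difference of −7.25 (SE 0.20, adjusted p = 7.0e-14). Every SUM149 library lay above every BT-549 library for both genes. The change for CDH1 was 0.48 (adjusted p = 0.4) and passed only without BT-549 CshRNA 3 (1.41, adjusted p = 0.013), a library with more CDH1 than the others of its group. ESRP1, an epithelial splicing regulator, and the claudin gene CLDN7 differed by −9.19 (SE 0.16, adjusted p = 7.5e-16) and −9.21 (SE 0.18, adjusted p = 2.0e-15), with 12.3% of the exonic bases of CLDN7 shared with another gene.

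Among genes with at least 10 counts in both silenced groups, the largest BT-549 excess was that of CXCL5, a neutrophil-attracting chemokine, at 409, 314 and 375 CPM in BT-549 MUC1shRNA and 0.708, 0.446 and 0.482 CPM in SUM149 MUC1shRNA (9.39 (SE 0.24, adjusted p = 5.7e-13)). The largest SUM149 excess was that of AREG, which encodes the EGFR ligand amphiregulin. AREG was at 0.206, 0.295 and 0.0669 CPM in BT-549 MUC1shRNA and 1546, 1695 and 1623 CPM in SUM149 MUC1shRNA, a difference of −12.97 (SE 0.16, adjusted p = 4.8e-17). The 10 tested ERBB receptors and ligands had a median of −5.36 and counted 6 with SUM149 higher, beside 24.6% of all tested genes. The receptor gene EGFR itself differed by only −0.32 (adjusted p = 0.0011). Keratin genes KRT81 and KRT6A and the 14-3-3 gene SFN were also among the largest, at −10.99 (SE 0.48, adjusted p = 1.2e-11), −9.13 (SE 0.15, adjusted p = 4.4e-16) and −9.02 (SE 0.22, adjusted p = 2.1e-14). The changes between arms of AREG, KRT81, KRT6A and SFN did not pass the test.

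Some large differences were of genes at 0 in 1 line. TIMP3, an inhibitor of metalloproteases, was at 822, 946 and 745 CPM in BT-549 MUC1shRNA and at 0 counts in all 3 SUM149 libraries, at least 7770-fold higher by the floor of 3 counts over the group. Before silencing BT-549 had held 53.9, 57.1 and 70.1 CPM, and the level in BT-549 thus differed between arms without any overlap. The ubiquitin hydrolase gene UCHL1, the matrix gene FBLN2 and the Wnt antagonist gene SFRP2 were likewise at 0 in SUM149 MUC1shRNA and averaged 381, 361 and 358 CPM in BT-549. In the other direction S100A16, DMBT1, SPINT1 and S100A14 were at 0 in BT-549 and averaged 220.2, 195, 156 and 144 CPM in SUM149, at least 3768-fold higher for S100A16 and at least 2469-fold for S100A14. S100A16 and S100A14 are calcium-binding proteins, DMBT1 a mucosal scavenger receptor and SPINT1 an inhibitor of membrane proteases. In all, 81 genes of at least 5 CPM in BT-549 MUC1shRNA were at 0 in SUM149 MUC1shRNA, and 114 were so in the other direction. With every library thinned to 7931614 counts, these numbers were 84 and 175.

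Mesenchymal markers were higher in BT-549 in 19 of 27 tested members and higher in SUM149 in 4, beside 19.9% and 24.6% of all tested genes. The counts were the same as before silencing, with medians of 3.19 (2.87 with bounds) after it and 2.83 before. VIM, which encodes vimentin, was at 1617, 1432 and 1627 CPM in BT-549 MUC1shRNA and 35.9, 32.2 and 28.7 CPM in SUM149 MUC1shRNA. Its difference was 5.6 (SE 0.09, adjusted p = 4.0e-16) after silencing and 5.59 before, with 24.4% of its exonic bases shared with an antisense gene. The collagen gene COL1A2 averaged 1884 CPM in BT-549 and had 1 count in SUM149 MUC1shRNA. SPARC, a collagen-binding matrix protein, averaged 2090 CPM in BT-549 and had 2 counts in SUM149 MUC1shRNA. COL1A1 was at 1225, 1149 and 1183 against 23.6, 27.6 and 24.7 CPM, and its difference of 5.55 (SE 0.11, adjusted p = 2.0e-15) was wider than before silencing by 0.60 (SE 0.13, adjusted p = 0.0022).

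FN1, which encodes fibronectin, closed. FN1 was at 2469, 1703 and 2440 CPM in BT-549 MUC1shRNA and 3317, 3044 and 2949 CPM in SUM149 MUC1shRNA, against 1833, 1812 and 1476 and 828, 737 and 736 CPM before silencing. SUM149 lay above BT-549 after silencing and below it before, with no overlap in either arm. The line difference was −0.49 (SE 0.12, adjusted p = 0.0014) and 1.15 (SE 0.12, adjusted p = 3.0e-07), the first short of 2-fold, so that FN1 counted as closed. The summed level of the mesenchymal list was 3670 to 4072 CPM in SUM149 MUC1shRNA against 1312 to 1479 CPM in SUM149 CshRNA, and FN1 made up most of both sums.

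**Figure D2:**
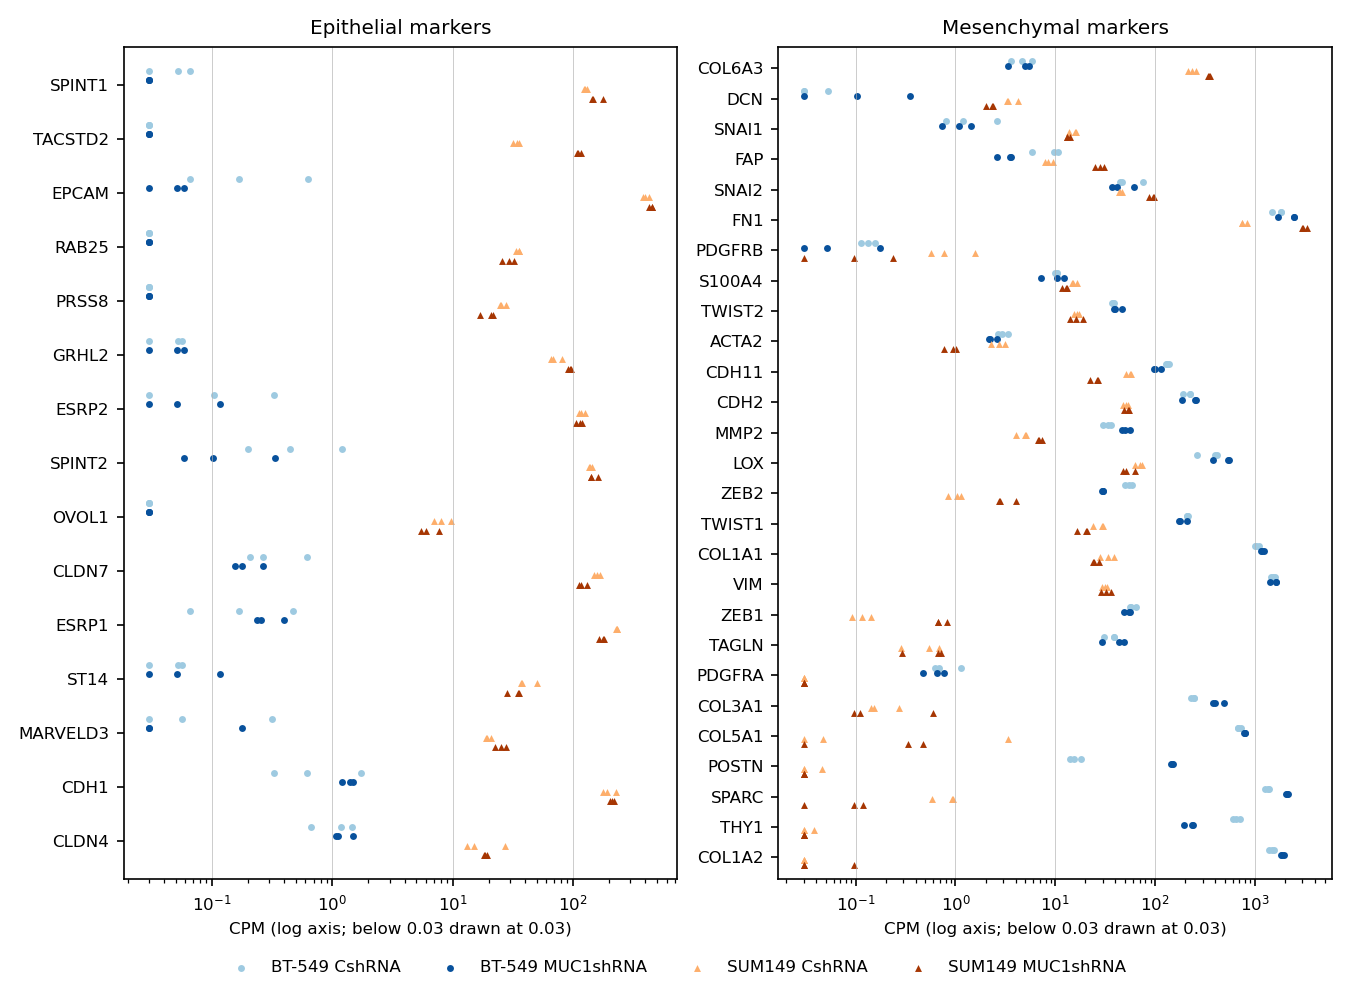
Levels (CPM, log axis, values below 0.03 drawn at 0.03) of the tested general epithelial markers on the left and mesenchymal markers on the right, one row per gene, one point per library and one colour per group of 3. All 15 epithelial genes lie higher in SUM149 in both arms, whereas mesenchymal genes run from strongly higher in SUM149 to strongly higher in BT-549, with FN1 of SUM149 at 3317, 3044 and 2949 CPM after silencing and 828, 737 and 736 CPM before.

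Basal, luminal and squamous genes also kept the lines apart, and several gaps narrowed in the basal and luminal lists. By class, 4 basal and 3 luminal markers narrowed and 0 of either list widened. Of the squamous genes 1 narrowed, 2 widened and 1 reversed. SUM149 was higher in 12 of 15 basal markers after silencing and in 13 before, with medians of −4.24 and −4.82. Over all tested genes SUM149 was higher in 24.6% after silencing and in 27.3% before. Among 13 squamous differentiation genes, SUM149 was higher in 12 after silencing and in 10 before, with medians of −4.41 and −4.24 with bounds. All 11 desmosome genes were higher in SUM149 in both arms (medians −4.02 and −4.39). Luminal markers were higher in SUM149 in 7 of 10, and the 6 whose difference changed all moved towards BT-549.

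TP63, the transcription factor of basal epithelium, showed the largest narrowing of the basal list. TP63 was at 0.669, 0.767 and 0.736 CPM in BT-549 MUC1shRNA and 2.36, 2.45 and 2.22 CPM in SUM149 MUC1shRNA, whereas SUM149 CshRNA had held 57.4, 55.6 and 49.7 CPM. BT-549 stayed at the same low level, and SUM149 stayed above it without overlap. The difference was −1.69 (SE 0.19, adjusted p = 1.0e-06) after silencing and −6.16 before, a change of 4.48 (SE 0.27, adjusted p = 1.5e-08). Keratin 5, made by basal cells, narrowed in the same direction: KRT5 differed by −3.10 after silencing and −4.50 before, a change of 1.40 (SE 0.12, adjusted p = 3.2e-07).

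KRT8, a keratin of luminal cells, narrowed from the other side. KRT8 was at 295, 248 and 303 CPM in BT-549 MUC1shRNA against 45.5, 43.2 and 45 CPM in BT-549 CshRNA, while SUM149 was at 548, 629 and 588 CPM and 568, 571 and 544 CPM. The groups did not overlap between lines in either arm, and only the BT-549 level had shifted. The difference was −1.06 (SE 0.07, adjusted p = 2.4e-09) after silencing and −3.65 before, a change of 2.59 (SE 0.11, adjusted p = 2.6e-10). Without BT-549 MUC1shRNA 2 it was −0.98 and no longer 2-fold. Its partner KRT18 was short of 2-fold in both arms, at 0.62 and −0.44, with a change of 1.05 (adjusted p = 1.8e-05) and 16.3% of its exonic bases shared with another gene. In the luminal list GATA3, a luminal transcription factor, narrowed with a change of 2.44 (SE 0.60, adjusted p = 0.0045) and ELF3, an epithelial transcription factor, closed at −0.05 from −1.84, with 18.5% of its exonic bases shared. Without BT-549 CshRNA 3, which held more GATA3 than its replicates, the GATA3 change was 4.34 (adjusted p = 3.2e-04). The narrowing of GATA3 rests on few BT-549 counts, 0, 1 and 6 in CshRNA and 13, 9 and 6 in MUC1shRNA.

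The desmosome genes PKP2, a plakophilin, and PERP narrowed as well, with PKP2 at 2.47, 1.06 and 3.21 CPM in BT-549 MUC1shRNA and 0.112, 0 and 0.157 CPM in BT-549 CshRNA. The latter are 2, 0 and 3 counts. PKP2 differed by −4.02 and −9.31 in the MUC1shRNA and CshRNA arms and PERP by −2.46 and −4.39, changes of 5.29 (adjusted p = 3.2e-06) and 1.93 (adjusted p = 9.2e-09). CHRM3, a muscarinic receptor gene, had 1 of the largest narrowings outside the lists, from −6.42 to −1.09. Without BT-549 MUC1shRNA 3 the silenced difference of CHRM3 was −0.98 and no longer 2-fold.

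The mesenchymal repressors ZEB1 and ZEB2 narrowed with higher levels in SUM149, whereas SNAI1 and TWIST1 of the same list did not. SNAI2 had 2587 counts in the shallower SUM149 MUC1shRNA group and 3094 in SUM149 CshRNA. Scaled to depth, its level in SUM149 was thus also higher after silencing. ZEB1 was at 55.4, 48.9 and 55.7 CPM in BT-549 MUC1shRNA and 0.826, 0.668 and 0.675 CPM in SUM149 MUC1shRNA, against 0.115, 0.142 and 0.0913 CPM in SUM149 CshRNA. The level in SUM149 was higher after silencing but remained far below BT-549, without overlap. ZEB2 was also lower in BT-549 after silencing than before. The ZEB1 difference was 6.20 (SE 0.14, adjusted p = 1.3e-14) with a change of −2.71 (SE 0.40, adjusted p = 8.3e-05), and that of ZEB2 was 3.22 (SE 0.13, adjusted p = 6.5e-12) with a change of −2.54 (SE 0.22, adjusted p = 5.6e-07). WNT5B, a secreted Wnt ligand, went from 11.26 to 8.2 (SE 0.15, adjusted p = 8.7e-16). The narrowings of ZEB1 and WNT5B rest on few SUM149 counts. WNT5B had 3, 1 and 1 in SUM149 CshRNA and 4, 4 and 10 in SUM149 MUC1shRNA, and ZEB1 had 8 and 20 in all. DDR2, a collagen receptor, was at 352, 351 and 338 against 0.236, 0.780 and 0.868 CPM and widened from 7.42 to 9.05, a change of 1.63 (SE 0.28, adjusted p = 3.4e-04).

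Other gaps widened with SUM149 higher, among them those of PLAT and LAMA3. PLAT, which encodes tissue plasminogen activator, was at 0.257, 0.0590 and 0.268 CPM in BT-549 MUC1shRNA and 91.9, 106 and 107 CPM in SUM149 MUC1shRNA. The CshRNA groups had held 0.728, 0.663 and 1.3 and 22.4, 24.1 and 22.5 CPM, so that the lines had moved apart from both sides, without overlap. The difference was −8.97 (SE 0.20, adjusted p = 9.3e-15) with a change of −4.34 (SE 0.42, adjusted p = 1.5e-06). LAMA3, a laminin chain of epithelial basement membrane, was at 44.1, 49.7 and 42.9 against 978, 914 and 884 CPM, a difference of −4.34 (SE 0.07, adjusted p = 4.0e-16) that had been −2.03.

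The targets of ATF4 stood higher in BT-549 after silencing and were divided between the lines before it. Of 34 listed targets, all tested, 23 were line differences with BT-549 higher in the MUC1shRNA libraries and 0 with SUM149 higher, against 6 and 9 in the CshRNA libraries. Over all tested genes these shares were 19.9% and 24.6% in the MUC1shRNA and 20.3% and 27.3% in the CshRNA libraries. The change passed towards BT-549 in 31 and towards SUM149 in 1, ATF5, beside 19.5% and 20.1% of all tested genes. Their median difference was 1.67 after silencing and −0.54 before. By class, 14 appeared, 4 reversed, 3 widened and 6 closed. SUM149 levels moved most: the median response to the hairpin was −1.74 in SUM149 and 0.23 in BT-549.

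ATF4 itself was among the appeared genes. ATF4 was at 433, 414 and 431 CPM in BT-549 MUC1shRNA and 131, 145 and 135 CPM in SUM149 MUC1shRNA, against 408, 422 and 427 and 438, 446 and 426 CPM before silencing. The CshRNA groups overlapped, and after silencing each SUM149 library lay far below each BT-549 library. The line difference was 1.64 (SE 0.05, adjusted p = 4.2e-13) after silencing and −0.06 (adjusted p = 0.27) before, a change of 1.70 (SE 0.07, adjusted p = 4.7e-10).

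ATF4 binds, with C/EBP partners, DNA elements that hold the letters TGATGNAA, and these letters were searched on both strands in the 250 bases before each gene start in RefSeq (GRCh38.p14). Of the 34 targets, 28 matched the promoter table and 3 of those (10.7%) held a match, against 1104 of 35116 promoters of the table (3.14%) and 157 of 10825 promoters of tested genes (1.45%). The 3 windows are shown because their genes are described with their values below, with the match in capitals and each strand as the gene is read.
ASNS, chr7:97872443-97872502, minus strand: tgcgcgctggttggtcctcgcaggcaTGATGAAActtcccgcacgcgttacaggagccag
ATF3, chr1:212565190-212565249, plus strand: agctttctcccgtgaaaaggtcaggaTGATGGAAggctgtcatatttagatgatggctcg
CHAC1, chr15:40953236-40953295, plus strand, match on the other strand: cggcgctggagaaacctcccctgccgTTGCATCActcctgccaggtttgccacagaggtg
The matches lay 60, 183 and 201 bases before the gene start. They describe letters and not binding, and a target without a match in this window is no less a target.

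ASNS encodes asparagine synthetase, whose promoter element is shown first. ASNS was at 226, 204 and 231 CPM in BT-549 MUC1shRNA and 22.1, 20.4 and 18.8 CPM in SUM149 MUC1shRNA, whereas the CshRNA groups held 189, 190.2 and 181 and 208, 211 and 219 CPM. The lines lay close together before silencing and far apart after it. The difference was 3.44 (SE 0.07, adjusted p = 6.6e-15) and had been −0.19 (adjusted p = 0.0093), a change of 3.62 (SE 0.10, adjusted p = 8.0e-12), and 44.6% of its exonic bases are shared with an overlapping gene. CHAC1, a glutathione-degrading enzyme, was at 16.8, 13.9 and 13.1 CPM in BT-549 MUC1shRNA and 0.826, 0.446 and 0.289 CPM in SUM149 MUC1shRNA, a difference of 4.84 (SE 0.24, adjusted p = 5.2e-11) that had been −0.52. ATF3, a stress-induced transcription factor, was higher in BT-549 in both arms and widened to 2.53 (SE 0.14, adjusted p = 2.0e-10), a change of 1.3 (adjusted p = 5.9e-05).

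GDF15 had the largest appearance of the list, followed by CHAC1 and NUPR1. GDF15, a secreted stress cytokine, was at 74.9, 75.5 and 78.0 CPM in BT-549 MUC1shRNA and 0.826, 0.334 and 2.41 CPM in SUM149 MUC1shRNA, and at 31.2, 25.1 and 27.7 and 19.4, 20.5 and 24.1 CPM in the CshRNA groups. BT-549 had moved up and SUM149 down, and the silenced groups stood apart by 5.92 (SE 0.24, adjusted p = 5.9e-12). NUPR1, a stress-induced nuclear protein, was at 66.4, 62.3 and 63.7 against 4.37, 2.79 and 3.95 CPM after silencing, a difference of 4.11 (SE 0.12, adjusted p = 1.8e-13) that had been −0.93. SESN2, a sestrin that restrains mTORC1, differed by 2.98 (SE 0.11, adjusted p = 1.6e-12) after silencing and −0.72 before, DDIT3, the transcription factor CHOP (39.6% of its exonic bases shared with another gene), by 2.27 and −0.65, and PHGDH, the first enzyme of serine synthesis, by 1.65 and 0.08.

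The 4 reversed genes of the list went from SUM149 higher to BT-549 higher. SLC7A11, the cystine transporter, was at 82.1, 58.6 and 77.6 CPM in BT-549 MUC1shRNA and 4.37, 2.90 and 3.28 CPM in SUM149 MUC1shRNA, whereas before silencing SUM149 had the higher level (115, 117 and 101 against 56.2, 55.3 and 45.4 CPM). The difference was 4.38 (SE 0.18, adjusted p = 5.5e-12) and had been −1.09 (SE 0.12, adjusted p = 4.3e-07). ADM2, an adrenomedullin-family peptide, went from −1.56 to 3.71 (SE 0.19, adjusted p = 1.1e-10), the glycine transporter gene SLC6A9 from −1.3 to 2.21 (SE 0.10, adjusted p = 1.4e-11) and the pseudokinase gene TRIB3 from −1.62 to 1.09 (SE 0.08, adjusted p = 2.9e-09). In each of these 4 genes the groups did not overlap in either arm, and TRIB3 stood at 0.98, short of 2-fold, under upper-quartile scaling.

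**Figure D3:**
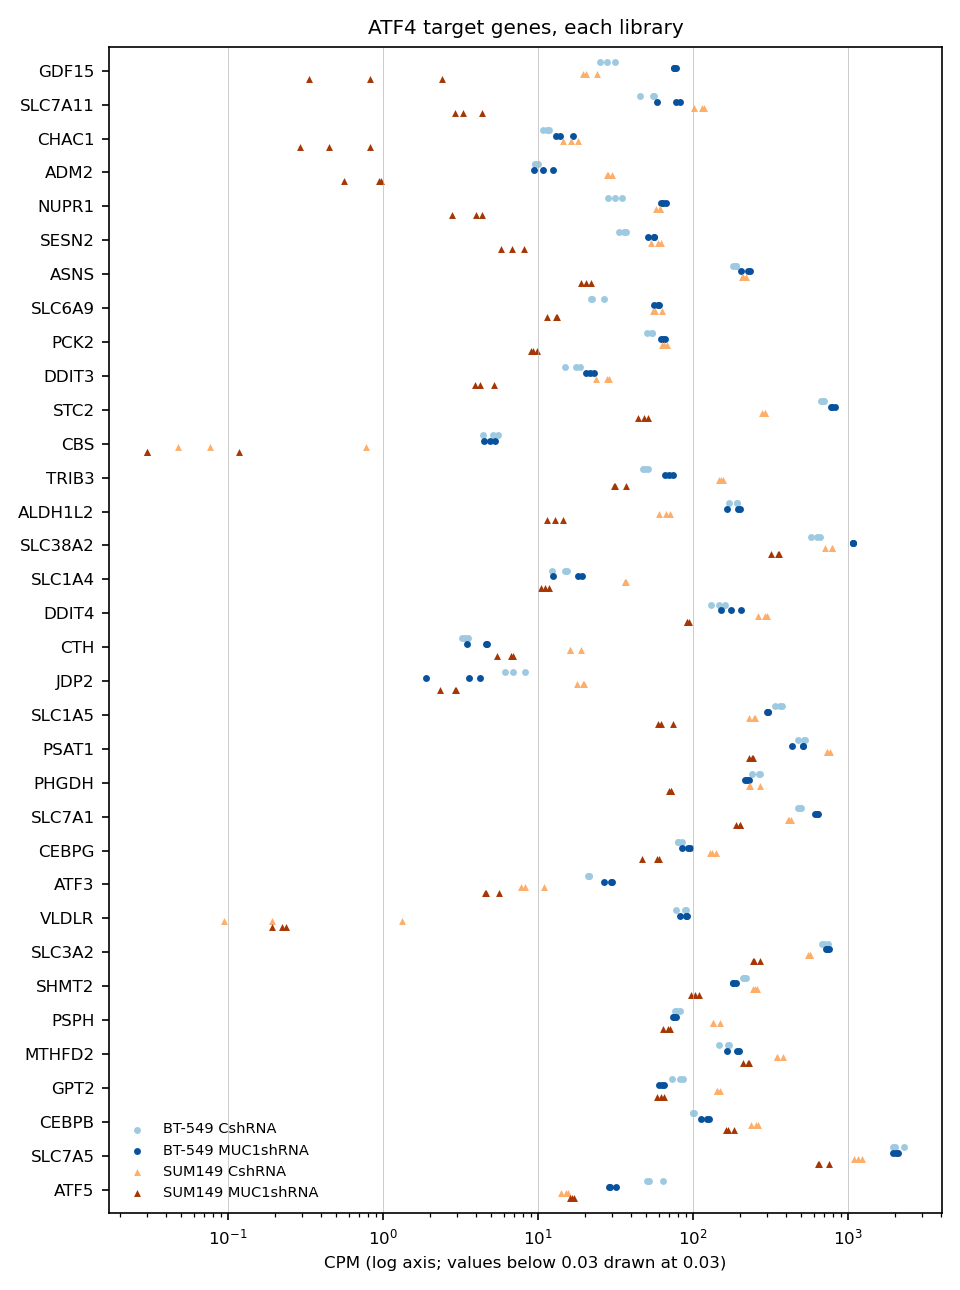
Levels (CPM, log axis, values below 0.03 drawn at 0.03) of the 34 ATF4 target genes, ordered by the change of the line difference, one point per library and one colour per group of 3. In most rows the 3 SUM149 MUC1shRNA points lie to the left of all others, as for ASNS at 22.1, 20.4 and 18.8 CPM.

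Cytosolic tRNA synthetases followed in part. Of 20, BT-549 was higher in 7 and SUM149 in 1 after silencing, beside 19.9% and 24.6% of all tested genes, against 2 and 1 before. The change passed towards BT-549 in 13 and towards SUM149 in 5, beside 19.5% and 20.1% of all tested genes. The median difference was 0.66 and had been 0.10. The 6 that appeared were AARS, CARS, MARS, SARS, WARS and YARS. SARS, the synthetase for serine, was at 492, 483 and 494 CPM in BT-549 MUC1shRNA and 123, 129.5 and 128 CPM in SUM149 MUC1shRNA, a difference of 1.95 (SE 0.05, adjusted p = 4.3e-14) that had been 0.58, and YARS differed by 1.48 (SE 0.05, adjusted p = 1.4e-12) and had by 0.08 (adjusted p = 0.14). XBP1, a transcription factor of the unfolded protein response that was listed as a luminal marker, appeared with them, at 1.34 (SE 0.07, adjusted p = 7.2e-11) after silencing and −0.09 (adjusted p = 0.18) before. LAMB2, a laminin chain, appeared at 1.17 (SE 0.08, adjusted p = 2.2e-09).

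The genes that appeared with SUM149 higher included TNC and FAP. TNC, the matrix glycoprotein tenascin C, was at 17.3, 19.3 and 16.8 CPM in BT-549 MUC1shRNA and 110.4, 111 and 112 CPM in SUM149 MUC1shRNA, and at 23.3, 21.9 and 21.5 and 23.5, 21.2 and 22.6 CPM in the CshRNA groups. The lines overlapped before silencing and stood apart after it, by −2.64 (SE 0.07, adjusted p = 6.5e-14). FAP, a fibroblast surface protease, was at 3.55, 2.60 and 3.61 against 27.8, 25.3 and 30.8 CPM, a difference of −3.10 (SE 0.20, adjusted p = 1.2e-09) where it had been 0.02 (adjusted p = 0.94). PROCR, the protein C receptor, NEXN, an actin-binding protein, and GAL, the neuropeptide galanin, appeared at −3.51, −3.30 and −2.88, with changes of −3.00 (adjusted p = 5.2e-07), −2.62 (adjusted p = 1.4e-05) and −2.61 (adjusted p = 3.6e-05) and 12.8% of the exonic bases of PROCR shared.

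The sides that moved differed among these genes. FAP in BT-549 was lower after silencing (3.55, 2.60 and 3.61 CPM) than before (10.7, 9.62 and 5.90 CPM) and in SUM149 higher (27.8, 25.3 and 30.8 against 8.47, 9.51 and 7.85 CPM). GAL fell in BT-549 from 7.0, 6.83 and 7.31 to 0.875, 1.18 and 1.34 CPM, while its response in SUM149 did not pass the test. CCND1, the cyclin of early G1, was at 169.8, 143 and 176 against 477, 468 and 466 CPM, a difference of −1.53 (SE 0.07, adjusted p = 2.1e-11) that had been −0.44, and 10.3% of its exonic bases are shared with another gene.

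Among proliferation genes most changes that passed were towards SUM149, and the lines drew together in some of these genes and moved apart in others. Of 38 DNA replication genes, 5 had been line differences before silencing, all with BT-549 higher, and none of these 5 was one after it. The 2 that were so after silencing, CDC45 and DUT, had SUM149 higher. Over all tested genes, BT-549 was higher in 20.3% before silencing and SUM149 in 24.6% after it. The change passed towards SUM149 in 27 of 38 and towards BT-549 in 0, beside 20.1% and 19.5% of all tested genes. The median went from 0.49 to −0.26. FEN1, the flap endonuclease of lagging-strand synthesis, was at 158, 167 and 165 CPM in BT-549 MUC1shRNA and 129.8, 139 and 138 CPM in SUM149 MUC1shRNA, against 175, 179 and 188 and 43.2, 41.3 and 53.4 CPM in the CshRNA groups. SUM149 had moved up to near BT-549, although the silenced groups still did not overlap. The difference was 0.27 (SE 0.08, adjusted p = 0.0059) after silencing and 1.98 (SE 0.08, adjusted p = 4.4e-12) before, a change of −1.71 (SE 0.11, adjusted p = 3.3e-08).

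Other replication genes ended on either side of 0. MCM5, a subunit of the replicative helicase, was at 126, 142 and 125 against 123, 134 and 131 CPM after silencing, which overlapped, and differed by 1.16 (adjusted p = 1.7e-09) before it. ORC1, of the origin recognition complex, stayed under 2-fold in both arms and turned from 0.86 (adjusted p = 3.1e-09) to −0.80 (adjusted p = 9.2e-09). CDC45, a helicase cofactor, and DUT, a dUTPase, differed by −1.34 (adjusted p = 2.0e-11) and −1.26 (adjusted p = 7.7e-11), with 14.5% of the exonic bases of DUT shared with another gene.

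Mitosis genes counted 3 of 40 with BT-549 higher after silencing and 8 before, beside 19.9% and 20.3% of all tested genes. The change passed towards SUM149 in 26 and towards BT-549 in 2, beside 20.1% and 19.5% of all tested genes. ANLN, which encodes the contractile-ring protein anillin, was at 1125, 1020 and 1139 CPM in BT-549 MUC1shRNA and 366, 303 and 337 CPM in SUM149 MUC1shRNA, against 127, 126 and 128 CPM in SUM149 CshRNA. It remained higher in BT-549 but narrowed from 3.24 to 1.71 (SE 0.07, adjusted p = 5.1e-12). UBE2C, a ubiquitin-conjugating enzyme of mitotic exit, closed, at 0.52 from 1.34, a change of −0.82 (adjusted p = 6.0e-07). Among 40 MYC targets of ribosome assembly and metabolism the change passed towards SUM149 in 23 and towards BT-549 in 0, beside 20.1% and 19.5%. Their medians were −0.28 after silencing and 0.07 before. MYC itself was higher in SUM149 in both arms, at −1.03 and −1.29, and at −0.98 without SUM149 MUC1shRNA 2.

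G1 regulators held both kinds. CCNE1, or cyclin E1, and the kinase gene CDK6 closed, at 0.33 from 1.65 and 0.34 from 1.81. The inhibitor gene CDKN2A remained, at 499, 521 and 498 CPM in BT-549 MUC1shRNA and 0, 0 and 0.193 CPM in SUM149 MUC1shRNA, where it had 2 counts. RB1, the retinoblastoma gene, was higher in SUM149 in both arms, at −1.43 (SE 0.09, adjusted p = 4.8e-10) and −1.59.

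Among collagens most changes that passed were towards SUM149, and 3 closed. Of 21 collagen genes, BT-549 was higher in 10 after silencing and in 14 before, and SUM149 in 6 and 3. The shares of all tested genes were 19.9% and 20.3% for BT-549 and 24.6% and 27.3% for SUM149. The change passed towards SUM149 in 12 and towards BT-549 in 3, beside 20.1% and 19.5% of all tested genes. The basement membrane gene COL4A2 was at 265, 271 and 276 CPM in BT-549 MUC1shRNA and 229, 284 and 237 CPM in SUM149 MUC1shRNA, which overlapped, and at 408, 388 and 373 against 150.1, 139.9 and 122 CPM before. Its difference was 0.11 (adjusted p = 0.22) after silencing and 1.5 (adjusted p = 1.7e-10) before, and that of COL12A1 was −0.13 (adjusted p = 0.12) and 1.21 (adjusted p = 4.2e-10). COL27A1 reversed, from 1.07 to −1.23 (SE 0.21, adjusted p = 7.8e-05).

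CD274, which encodes the T-cell inhibitory ligand PD-L1, also reversed. CD274 was at 4.32, 2.65 and 4.35 CPM in BT-549 MUC1shRNA and 12.5, 11.6 and 9.93 CPM in SUM149 MUC1shRNA, against 3.47, 3.32 and 2.45 and 0.498, 0.615 and 0.685 CPM before silencing. The lines did not overlap in either arm, and the higher one had switched from BT-549 to SUM149. The difference was −1.58 (SE 0.20, adjusted p = 3.8e-06) and had been 2.35 (SE 0.26, adjusted p = 5.9e-07), a change of −3.94 (SE 0.33, adjusted p = 3.7e-07). PDCD1LG2, its neighbour PD-L2, closed at −0.74 from 2.19, and ULBP1, a ligand of the activating receptor NKG2D, closed from the other side, at −0.62 from −4.51. The ULBP1 difference after silencing rests on few counts, 9, 5 and 4 in BT-549 and 4, 8 and 3 in SUM149. SUM149 CshRNA had held 415, 341 and 342 ULBP1 counts.

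The largest closings towards SUM149 were those of ANGPTL4, IL7R and ADAM19. ANGPTL4, a secreted inhibitor of lipoprotein lipase, was at 57.3, 59.2 and 51.6 CPM in BT-549 MUC1shRNA and 29.3, 34.5 and 29.2 CPM in SUM149 MUC1shRNA, where SUM149 CshRNA had held 1.5, 1.66 and 1.96 CPM. The difference was 0.86 (SE 0.08, adjusted p = 1.7e-07) and had been 5.48. IL7R, a cytokine receptor subunit, went from 4.98 to 0.73 (SE 0.15, adjusted p = 3.6e-04) with movement in both lines. ADAM19, a membrane metalloprotease, was at 107, 87.8 and 113 against 142, 161 and 146 CPM after silencing and 73.2, 67.7 and 65.5 against 5.52, 5.91 and 4.75 CPM before, and went from 3.67 to −0.55 (SE 0.09, adjusted p = 4.6e-05). The higher line thus switched for ADAM19, short of 2-fold.

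Closings towards BT-549 were largest for ULBP1, SLITRK6, C11orf86, ENTPD2, NEBL and BBC3. NEBL, an actin-binding nebulette, was at 19.5, 27.0 and 16.9 CPM in BT-549 MUC1shRNA and 23.6, 22.2 and 21.8 CPM in SUM149 MUC1shRNA, which overlapped, and had been at 7.34, 8.29 and 6.74 against 61.2, 63.2 and 56.6 CPM. Without BT-549 MUC1shRNA 2 its difference after silencing was −0.30 (adjusted p = 0.014). ENTPD2, an enzyme that cleaves extracellular ATP, was at 14.2, 27.7 and 11.4 against 19.9, 26.1 and 21.5 CPM, with BT-549 MUC1shRNA 2 above both of its replicates. Its difference was −0.34 (adjusted p = 0.22), and −0.81 (adjusted p = 3.7e-04) without that library. SLITRK6, a neuronal membrane protein, stood just short of the 2-fold threshold after silencing (−1.0 (adjusted p = 2.7e-04)). It was past it without BT-549 MUC1shRNA 2 (−1.14) or SUM149 MUC1shRNA 2 (−1.12) or 3 (−1.08), and with other scalings or DESeq2 (−1.04). Without BT-549 CshRNA 2 it only just reached 2-fold. C11orf86 went from −0.89 to −1.19 without BT-549 MUC1shRNA 2. BBC3, the pro-apoptotic protein PUMA, went from −2.10 to 0.72, a change of 2.82 (adjusted p = 2.3e-08).

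Beyond those of the ATF4 list, reversals towards BT-549 were largest for SORL1, IQGAP2, NBEA and SLC43A1. NBEA, a vesicle-trafficking protein, was at 16.3, 18.8 and 15.2 CPM in BT-549 MUC1shRNA and 8.02, 5.91 and 8.39 CPM in SUM149 MUC1shRNA, and at 1.85, 0.995 and 1.36 against 21.7, 18.7 and 19.2 CPM before. Both lines had moved, and the difference went from −3.80 to 1.17 (SE 0.16, adjusted p = 5.9e-06), or to 0.98 in libraries thinned to equal depth. SLC43A1, a transporter of large neutral amino acids, went from −2.57 to 1.74 (SE 0.24, adjusted p = 6.9e-06). Towards SUM149, ARSI, a sulfatase, and SAMD9, an antiviral protein, reversed beside CD274 and COL27A1, from 1.53 to −1.19 and from 1.08 to −1.01. SAMD9 was no longer 2-fold without BT-549 MUC1shRNA 2 (−0.93) or SUM149 MUC1shRNA 3 (−0.89). CHD5, a chromatin remodeller of the NuRD family, reversed at a low level, with 1.03, 1.42 and 1.81 against 0.354, 0.446 and 0.289 CPM after silencing, with a difference of 1.94 (SE 0.39, adjusted p = 3.5e-04).

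Some of the largest values rested on SUM149 CshRNA 3, a library with reads that its replicates lacked. BMP7 was at 0, 0 and 8.31 CPM in the SUM149 CshRNA libraries, PLAA at 0, 0.0473 and 11, MAGED1 at 0.0767, 0.189 and 21.1, SPON2 at 1.8, 2.03 and 16.6 and SORL1 at 0.537, 0.615 and 11.6 CPM. The BT-549 CshRNA libraries were high in PLAA (265, 268 and 249.7 CPM), MAGED1 (279.8, 280.5 and 284 CPM) and SPON2 (428, 396 and 479 CPM) and low in SORL1 (0.112, 0 and 0.365 CPM) and IQGAP2 (0, 0.133 and 0.418 CPM). Library 3 of BT-549 CshRNA in turn stood apart for KRT81, a gene high in SUM149, with the 3 libraries at 0.560, 0.464 and 7.05 CPM. Some other genes high in 1 line stood apart in this way too. In the SUM149 CshRNA libraries FBLN2 was at 0.0767, 0.0946 and 1.37 CPM, CDKN2A at 0, 0 and 1.55 and TFPI at 0.0767, 0.378 and 2.51. EPCAM and SPINT2, high in SUM149, were at 0.168, 0.0664 and 0.626 and 0.448, 0.199 and 1.2 CPM in BT-549 CshRNA. Others did not. COL1A2, at 1562, 1494 and 1379 CPM in BT-549 CshRNA, was at 0 in the 3 SUM149 CshRNA libraries, where SPARC was at 0.575, 0.946 and 0.913 CPM. AREG, high in SUM149, was at 0.056, 0.133 and 0.209 CPM in BT-549 CshRNA. Mixing of libraries was not tested, and it would touch the control-arm values and the changes. In the silenced arm PLAA, MAGED1 and SPON2 were among the 8 largest BT-549 excesses, at 9.01 (SE 0.92, adjusted p = 2.8e-07), 8.84 (SE 1.12, adjusted p = 3.1e-06) and 8.51 (SE 0.68, adjusted p = 1.6e-08). BMP7, a bone morphogenetic protein, was at 22.2, 25.4 and 22.3 against 0.236, 0 and 0.0964 CPM in the silenced arm, with 3 counts in SUM149. Its change was 6.17 (adjusted p = 0.028), and −2.29 (adjusted p = 0.19) without SUM149 CshRNA 3, where it rests on those 3 counts against 0. The BMP7 change also did not pass without SUM149 MUC1shRNA 1, 2 or 3 (adjusted p = 0.059, 0.078 and 0.078 in edgeR), or with limma-voom (0.49). The change of SORL1 was 7.23 (adjusted p = 0.0021), and 4.37 without that library. IQGAP2 changed by 7.03 (adjusted p = 6.3e-05), and by 6.16 without it. Without SUM149 MUC1shRNA 1, 2 or 3 the silenced difference of SORL1 had adjusted p of 0.062, 0.088 and 0.051.

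Glucocorticoid targets stayed divided between the lines, with most changes towards BT-549. SUM149 alone was grown with hydrocortisone, in both arms. Of 22 tested, BT-549 was higher in 7 in either arm, and SUM149 was higher in 8 after silencing and in 12 before. The shares of all tested genes after and before silencing were 19.9% and 20.3% for BT-549 and 24.6% and 27.3% for SUM149. The change passed towards BT-549 in 13 and towards SUM149 in 4, beside 19.5% and 20.1% of all tested genes. The median went from −1.57 to 0.06, or to −0.05 after silencing under upper-quartile scaling. By class, 6 closed and 6 narrowed. FKBP5, a co-chaperone of the glucocorticoid receptor, was at 22.5, 15.9 and 17.7 CPM in BT-549 MUC1shRNA and 322, 289 and 293 CPM in SUM149 MUC1shRNA, against 635, 616 and 549 CPM in SUM149 CshRNA. It remained higher in SUM149 and narrowed from −5.26 to −4.00 (SE 0.12, adjusted p = 1.1e-13). TSC22D3, which encodes GILZ, was at 31.7, 31.9 and 28.4 against 16.5, 15.0 and 13.9 CPM after silencing and 17, 14.7 and 12.3 against 87.8, 84.9 and 84.3 CPM before, and turned from −2.55 to 1.02 (SE 0.11, adjusted p = 4.5e-07). That value was no longer 2-fold without BT-549 MUC1shRNA 2 (0.99) or SUM149 MUC1shRNA 3 (0.97). KLF9 closed, at 0.13 (adjusted p = 0.1) from −1.99, and ZBTB16 narrowed to −2.16 from −4.69. The part of the medium in these differences was not tested.

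YAP/TAZ and NF-kB targets kept a BT-549 excess that narrowed in several members. YAP/TAZ targets were higher in BT-549 in 13 of 24 after silencing and in 14 before, beside 19.9% and 20.3% of all tested genes. The change passed towards SUM149 in 14 and towards BT-549 in 5, beside 20.1% and 19.5% of all tested genes. CYR61, a matricellular protein, was at 963, 782 and 937 CPM in BT-549 MUC1shRNA and 157, 146 and 149.9 CPM in SUM149 MUC1shRNA, against 32.0, 27.5 and 26.7 CPM in SUM149 CshRNA, and narrowed from 4.90 to 2.57 (SE 0.08, adjusted p = 3.9e-13). NT5E, the ectonucleotidase CD73, narrowed from 4.05 to 2.09 (SE 0.08, adjusted p = 2.1e-12). NF-kB targets were higher in BT-549 in 15 of 29 after silencing and in 17 before, beside the same 19.9% and 20.3%. TNFAIP3, the inhibitor A20, closed at −0.03 (adjusted p = 0.83) from 2.04 (adjusted p = 4.8e-10), whereas IL1B, or interleukin 1 beta, widened with SUM149 higher, from −1.02 to −2.64 (SE 0.13, adjusted p = 4.5e-11).

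NuRD subunits, the chromatin complex named for its histone deacetylases, had small differences between the lines. After silencing 1 of 15 was a line difference with BT-549 higher, CHD5, beside 44.5% of all genes in either direction, and before silencing 1 with SUM149 higher, also CHD5. The change nevertheless passed towards BT-549 in 5 and towards SUM149 in 7 of the 15, beside 19.5% and 20.1% of all genes. HDAC1 was at 215, 235 and 214 CPM in BT-549 MUC1shRNA and 242, 243 and 253 CPM in SUM149 MUC1shRNA, a difference of −0.15 (adjusted p = 0.023). MTA1 and MBD3 differed by −0.21 (adjusted p = 0.017) and −0.11 (adjusted p = 0.29), and CHD4 by −0.72 (adjusted p = 1.9e-08), although 53.5% of the exonic bases of CHD4 are shared with other genes.

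Among the other lists, few moved as a block. Over all tested genes BT-549 was higher in 19.9% after silencing and in 20.3% before, and SUM149 in 24.6% after it. The change passed in 19.5% towards BT-549 and in 20.1% towards SUM149. Ribosomal protein genes were higher in BT-549 in 10 of 45 after silencing, near the 19.9% of all genes, and in 6 before, with the change towards BT-549 in 24 and towards SUM149 in 0 (medians 0.51 and 0.19). Glycolysis and hypoxia genes had a change that passed towards SUM149 in 15 of 33 (20.1% of all genes), and went from a median of 0.84 to 0.41. Cholesterol synthesis genes were higher in BT-549 in 11 of 25 after silencing and 10 before, with a median of 0.81 in both arms. MHC class I genes were higher in BT-549 in 12 of 17 after silencing and 11 before. CD44, the hyaluronan receptor used as a stemness marker, was at 1524, 1668 and 1572 against 254, 246 and 240.2 CPM, a difference of 2.69 (SE 0.06, adjusted p = 5.6e-15). Integrins counted 7 with either line higher among 16 and interferon-stimulated genes 13 with BT-549 and 5 with SUM149 higher among 36.

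Among single genes of breast cancer biology, the oestrogen receptor gene remained apart at a low level. ESR1, which encodes that receptor, was at 0.103, 0.177 and 0.0669 CPM in BT-549 MUC1shRNA and 4.72, 5.01 and 4.92 CPM in SUM149 MUC1shRNA, a difference of −5.30 (SE 0.42, adjusted p = 1.6e-08). Its change between the arms was −0.14 (adjusted p = 1) and did not pass the test. ALDH1A1, an aldehyde dehydrogenase used as a stemness marker, was at 1.59, 1.53 and 1.27 against 3.42, 4.01 and 4.34 CPM after silencing, which did not overlap, yet its difference of −1.41 (adjusted p = 0.22) did not pass. In that gene the BT-549 CshRNA libraries stood at 2.97, 0.597 and 32.0 CPM, with library 3 far above the others, and without library 3 the difference after silencing passed, at −1.41 (adjusted p = 0.0029).

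The remaining lists are given as counts, beside 19.9% of all tested genes with BT-549 higher after silencing and 24.6% with SUM149 higher. The change passed in 19.5% of all tested genes towards BT-549 and in 20.1% towards SUM149. Tight junction genes were higher in SUM149 in 9 of 13 after silencing and in 7 before (medians −2.42 and −1.23), and ERK feedback genes in 10 of 16 in both arms (−1.23 and −1.27), where the change passed towards BT-549 in 9. Metalloproteases and their inhibitors were higher in BT-549 in 12 of 23 after silencing and in 13 before, with the change towards SUM149 in 9. Notch genes were higher in SUM149 in 6 of 10 after silencing and 5 before, and hemidesmosome and laminin genes in 7 of 15 in both arms. Targets of p53 counted 6 with BT-549 and 8 with SUM149 higher among 22, stemness genes 5 and 2 among 12, NRF2 targets 4 and 3 among 23, TGF-beta receptors and targets 5 and 4 among 21, and nuclear respiratory chain genes 3 and 0 among 34. Immune ligands counted 2 and 6 among 13 after silencing and 5 and 6 before.

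**Figure D4:**
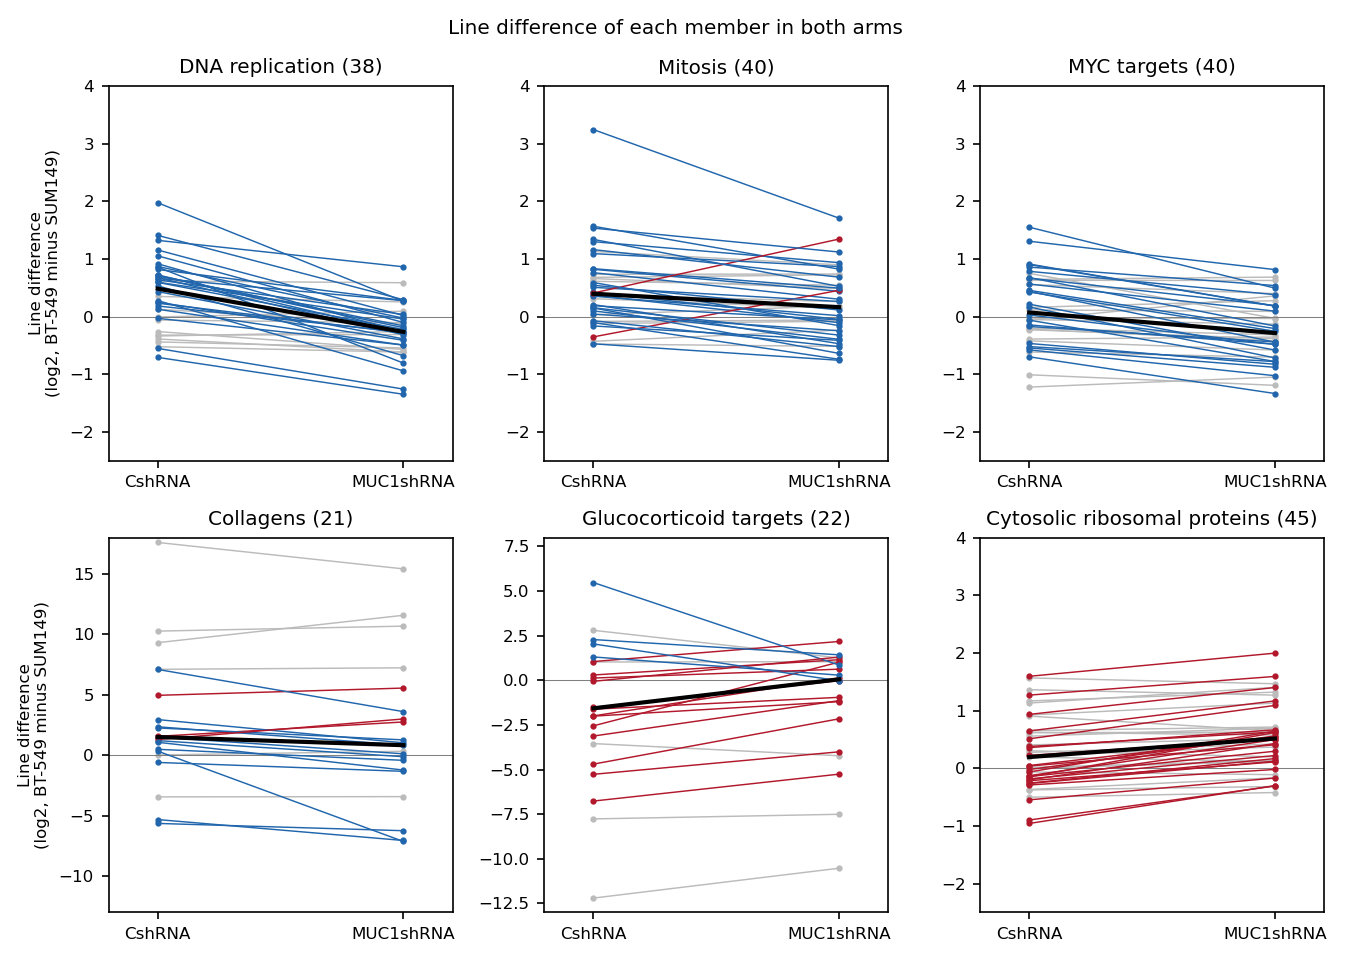
Line difference (log2, BT-549 minus SUM149) of each tested member of 6 gene lists in CshRNA and MUC1shRNA libraries, red where the change passed towards BT-549, blue where it passed towards SUM149, grey where it did not pass, with the list median in black, other y axes for collagens and glucocorticoid targets, and genes at 0 in a group at fitted values that depend on the prior count. DNA replication medians went from 0.49 to −0.26 and glucocorticoid medians from −1.57 to 0.06.

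**Figure D5:**
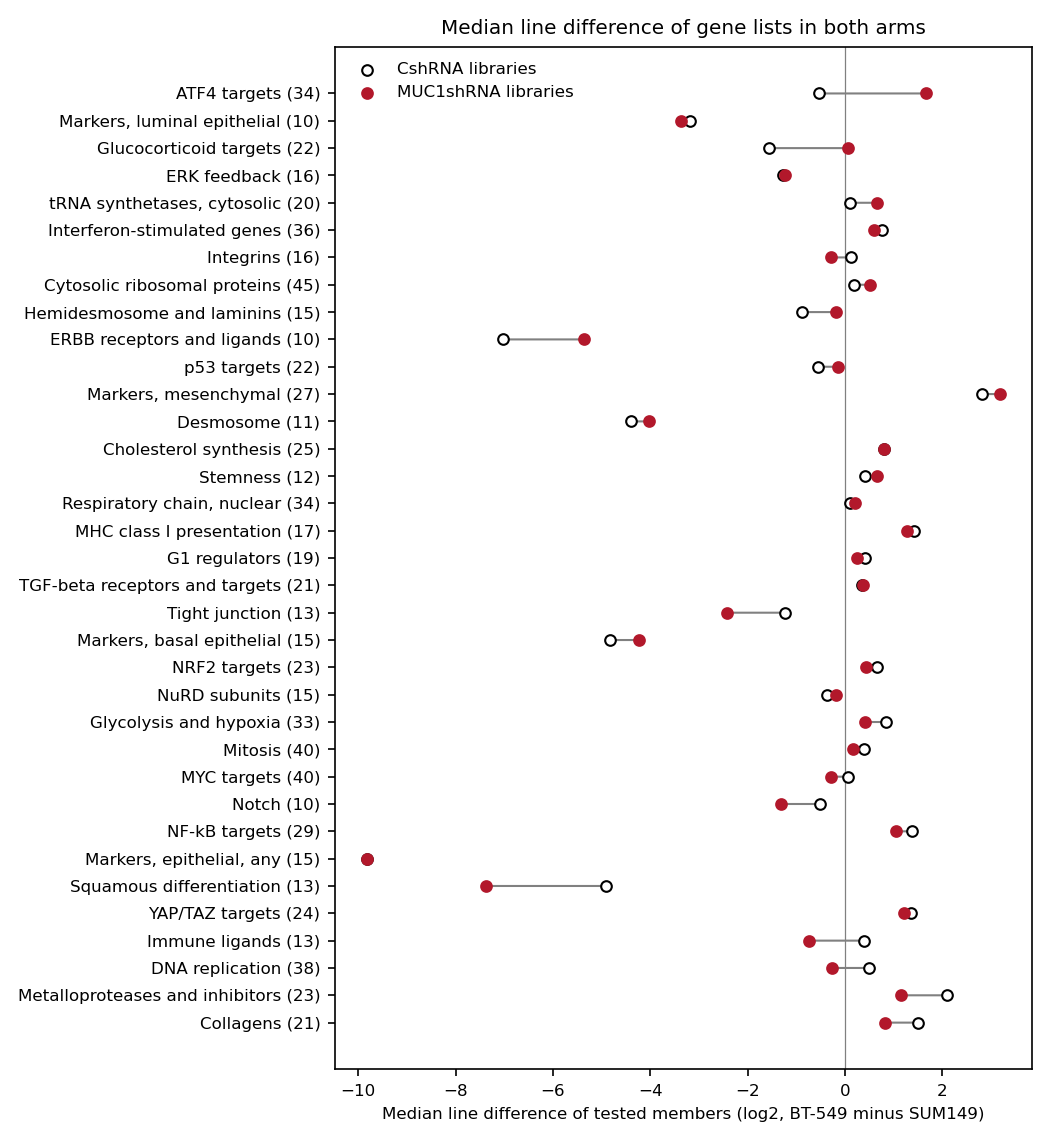
Median line difference (log2, BT-549 minus SUM149) of the tested members of each gene list with at least 8 of them, open circles for CshRNA and filled for MUC1shRNA libraries, ordered by the median change, with the number tested in brackets and genes at 0 at fitted values. ATF4 targets crossed from −0.54 to 1.67, whereas general epithelial markers were at −9.83 in both arms by fitted values.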

How the data were processed

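The deposited table held raw read counts per gene for 12 libraries, made by the authors. The submitters' processing notes name the build GRCh38.p7, STAR 2.7.0, CASAVA 1.8.2 and DESeq2 1.24.0. The counting tool, its annotation, the strand setting and the hairpin sequence were not given in the sources used here. Rows were matched by Ensembl identifier to GENCODE 29 (57388 of 58037), and 57 tested genes had no symbol. Library totals ran from 7931614 to 24140623 counts, and low genes of the shallower SUM149 MUC1shRNA libraries are the least precise.

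edgeR 4.0.16 (R 4.3.3) was fitted to all 12 libraries as 4 groups after its default filter on low counts (15649 genes) with TMM scaling, and its quasi-likelihood test gave the line difference in each arm and its change, with Benjamini-Hochberg adjustment over all tested genes. The 2 line differences share no libraries. A line difference needed an adjusted p below 0.05 and at least 2-fold, a change an adjusted p below 0.05. A fold against a group at 0 was set at the floor of 3 counts over the group. The fitting scripts were tested on simulated data. Alternatives were DESeq2-type and upper-quartile scaling, no filter and a stricter one (5 CPM in 3 libraries), DESeq2 1.42.0, limma-voom 3.58.1, each arm's 6 libraries alone, thinning to 7931614 counts, a replicate block, a test against 1.5-fold, other fold thresholds and each library left out. Leaving out 3 libraries that stood apart, BT-549 MUC1shRNA 2 and library 3 of each CshRNA group, was chosen after seeing the data.

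The comparison, the 37 gene lists and their members were chosen with earlier results of these data known. Genes were named by rule: the 8 largest differences in each direction with at least 5 CPM and 10 counts per group, the 4 most abundant genes at 0 in 1 line, the 6 largest changes of each class and direction (4 for widened and narrowed), the 3 clearest differences and 2 clearest changes of each list, and a preset set of markers. Of these the text gives those that carry a result. ATF3, ATF4, ATF5, CCNE1, CDK6, CHD5, DDIT3, ELF3, FN1, IL1B, KLF9, MCM5, PHGDH, SLC6A9, TRIB3 and ZBTB16 were named after their values were seen, as were list members given without a value. Promoter sequences are RefSeq's (GRCh38.p14).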

Additional observations from a re-analysis of the deposited data

Results flagged for a closer look

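The 86 genes below stand out because the silencing contrast differed between the lines by edgeR's interaction test (adjusted p below 0.05, 46 towards BT-549 and 40 towards SUM149). The values are changes of the line difference on the log2 scale, MUC1shRNA arm minus CshRNA arm, each over 3 libraries per group. They are drawn from genes named in the text, among 6194 genes whose change passed.

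Towards BT-549, ATF4 and its targets had GDF15 5.52, SLC7A11 5.46, CHAC1 5.36, ADM2 5.28, NUPR1 5.04, SESN2 3.70, ASNS 3.62, SLC6A9 3.51, DDIT3 2.92, TRIB3 2.7, ATF4 1.70, PHGDH 1.57 and ATF3 1.3. The tRNA synthetases and XBP1 had XBP1 1.43, YARS 1.40, WARS 1.37 and SARS 1.37. Keratins, desmosome genes and epithelial transcription factors had PKP2 5.29, TP63 4.48, KRT8 2.59, GATA3 2.44, PERP 1.93, ELF3 1.79, KRT5 1.40 and KRT18 1.05, and glucocorticoid targets TSC22D3 3.57, ZBTB16 2.54, KLF9 2.12 and FKBP5 1.26. The other genes of this direction had SORL1 7.23, IQGAP2 7.03, CHRM3 5.33, NBEA 4.97, SLC43A1 4.32, ULBP1 3.90, SLITRK6 3.65, C11orf86 3.44, CHD5 3.25, ENTPD2 3.20, NEBL 2.93, BBC3 2.82, DDR2 1.63, LAMB2 1.22, COL1A1 0.60, MTA1 0.48 and MYC 0.26.

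Towards SUM149, cell cycle and replication genes had FEN1 −1.71, ORC1 −1.66, ANLN −1.54, CDK6 −1.48, CCNE1 −1.32, MCM5 −1.14, CCND1 −1.09, UBE2C −0.82, DUT −0.71 and CDC45 −0.64. Matrix genes, their proteases and mesenchymal repressors had PLAT −4.34, FAP −3.12, ZEB1 −2.71, TNC −2.63, ZEB2 −2.54, LAMA3 −2.31, COL27A1 −2.30, FN1 −1.65, COL4A2 −1.39 and COL12A1 −1.33. Immune, NF-kB and YAP/TAZ genes had CD274 −3.94, PDCD1LG2 −2.93, CYR61 −2.33, TNFAIP3 −2.07, NT5E −1.96 and IL1B −1.63. The other genes of this direction had ANGPTL4 −4.62, IL7R −4.25, ADAM19 −4.22, WNT5B −3.06, PROCR −3.00, ARSI −2.72, NEXN −2.62, GAL −2.61, SAMD9 −2.08, ATF5 −1.05, HDAC1 −0.69, EGFR −0.63, CHD4 −0.36 and CD44 −0.23.

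The values of SORL1 and IQGAP2 fell to 4.37 and 6.16 without SUM149 CshRNA 3, and that of GATA3 was 4.34 without BT-549 CshRNA 3. The changes of MYC and CD44 no longer passed on leaving out any of several single libraries, in both arms, with adjusted p up to 0.107 for MYC and 0.0719 for CD44.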

How the results depend on the processing

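In 203 of 231 values of named genes, the call and the direction held in each rerun that kept the call rule, and the replicate block changed none. The replicate numbers do not pair the libraries (18 same-numbered pairs, r from −0.32 to 0.14, 3 over 0.1). With the replicate block 5639 genes remained, 794 appeared, 1072 closed and 49 reversed. Upper-quartile scaling moved the median difference of all genes from −0.03 to −0.14 and the median absolute difference after silencing to 0.884. With the stricter filter, 4414 genes were line differences after silencing (2313 with SUM149 higher) and 4719 before (2578), 3546 remained and 18 reversed, with medians of 0.743 and 0.783, and fewer genes were tested. Thinned to equal depth, 31 reversed, and the medians were 0.824 and 0.880. With each arm fitted alone they were 0.821 and 0.920, without a filter 1.06 and 1.34, and without the 3 libraries that stood apart 0.897 and 0.972. Leaving out 1 library gave 0.903 to 0.914 and 0.945 to 0.983. The cause of these shifts was not tested.

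Without a fold threshold 12477 genes were line differences after silencing (6092 with BT-549 and 6385 with SUM149 higher) and 12989 before (6185 and 6804), 10360 remained, 1414 widened, 2164 narrowed and 673 reversed. At 4-fold the numbers were 3838 (1456 and 2382) and 4148 (1450 and 2698), 3229, 227, 411 and 11, with 339 appeared and 541 closed. Thinned libraries shared 75.3% of the appeared, 78.5% of the closed and 53.9% of the reversed genes.

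Some list medians changed sign: glucocorticoid targets −0.05 with upper-quartile scaling, immune ligands 0.33 and integrins 0.65 with the stricter filter, integrins 0.71 with the arm alone and 1.09 thinned, endothelial markers −3.60 and −3.52 with the stricter filter and the arm alone, and TGF-beta −0.0082 with limma-voom, −0.10 without BT-549 MUC1shRNA 2 (0.52 at most on leaving out another library) and −0.11 without the 3 libraries. The changes of BMP7, PLAA and MAGED1 were −2.29, −4.13 and −2.18 without SUM149 CshRNA 3, at most 7.14, 3.47 and 4.58 without another library, and −2.26, −4.14 and −2.22 without the 3 libraries. The 7.14 of BMP7, without SUM149 MUC1shRNA 1, did not pass edgeR's test (adjusted p = 0.059). Depth limits genes under about 0.108 CPM in SUM149 MUC1shRNA.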
